A study of Homo sapiens with 54 samples.

Results

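The genes described here are the semaphorins of classes 3 to 7, the plexins and the neuropilins, taken as every gene symbol of the count tables with one of these family names. The rule finds 31 of the 26517 gene symbols, namely 20 semaphorins, 9 plexins and 2 neuropilins. Of the semaphorins, 7 belong to class 3, 6 to class 4, 2 to class 5, 4 to class 6 and 1 to class 7. The rule reads gene symbols alone. In all, 27 had enough counts to be tested in at least 1 of 3 experiments, and 4 (SEMA3E, SEMA4A, SEMA5A and SEMA6D) in none, with 21, 232, 10 and 13 counts over all 54 libraries.

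Semaphorins are ligands that steer growing axons, vessels and migrating cells, most often by making the receiving cell retract. Class 3 members are secreted, classes 4 to 6 span the membrane and SEMA7A is held by a lipid anchor. Their receptors are the plexins, which carry a GTPase-activating domain for Ras-family proteins inside the cell, whereas the neuropilins NRP1 and NRP2 have short tails, hold class 3 ligands for the A-type plexins, and also serve as co-receptors for vascular endothelial growth factors. In carcinoma cells the family is known for effects on migration, invasion and the tumour vasculature.

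RNA was sequenced from BT549, an established human line of triple-negative breast cancer, in 54 libraries that form 18 groups of 3. In the GATA6 experiment, cells were transfected for 72 h with control siRNA (siCtl) or pooled siRNA against GATA6 (siGATA6), which encodes a zinc-finger transcription factor. Vehicle or the synthetic glucocorticoid dexamethasone (DEX) at 500 nM was given for 2 h. In the BRM014 experiment, cells were given DMSO or 10 µM BRM014, which blocks the motor ATPases of SWI/SNF chromatin remodellers, each without or with 500 nM DEX, for 4 h or 24 h. In the AP-1 experiment, cells had siCtl, siRNA against FRA1 (siFRA1) or siRNA against JUN (siJUN), both AP-1 transcription factor subunits. These cells were given vehicle or 500 nM DEX. Neither the time of DEX nor that of the siRNA is stated in the labels of this experiment. The 24 h time comes from the sample labels, whereas the shared protocol names only shorter treatments. All groups are wild type and come from a single line without an immune or stromal compartment. The labels call replicates biological except in the AP-1 experiment, whose p-values may therefore measure technical spread. In bulk RNA, fewer cells that express a gene and less RNA per cell cannot be told apart.

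Depth per library was 12888724 to 30530736 counts for GATA6, 13243316 to 29339329 for BRM014 and 10186607 to 16352524 for AP-1. The 31 genes took 0.136% to 0.206% of these counts. The siRNA targets checked the labels: GATA6 was at 85.2 ± 6.51 CPM (counts scaled to a common library size, mean ± SD of 3 libraries) in siCtl and 10.3 ± 0.164 in siGATA6 with vehicle. FOSL1, which encodes FRA1, was at 172 ± 11.6 in siCtl and 46.8 ± 5.22 in siFRA1. JUN was at 280.4 ± 12.02 and 99.1 ± 13.1 in siCtl and siJUN. Of the markers of other cell types, 8 epithelial genes summed to 1.65 to 20.1 CPM, 6 endothelial to 0.883 to 13.0 and 6 immune to 0.558 to 9.48, against 3878 to 5732 for 7 mesenchymal genes that the line is known to express. The 5 glucocorticoid readout genes rose in every DEX comparison. In the BRM014 experiment, 5 libraries stood apart by higher counts of GC-rich against GC-poor transcripts (a log2 contrast of 0.697 to 1.32, against -0.182 to 0.587 in the other 19): BRM014 4 h replicate 3 and replicate 2 of the groups BRM014 with DEX 4 h, BRM014 24 h, DEX 24 h and BRM014 with DEX 24 h. The GC-poor members SEMA3A, SEMA3C and SEMA3D were lowest of their group in these libraries in 14 of 15 cases. Results that depend on these libraries are given with and without them. How a library's base composition acts on the members was not tested. Differences below are log2 fold changes (log2FC) from edgeR's quasi-likelihood test with Benjamini-Hochberg adjustment over all genes of an experiment, and a gene is said to rise or fall at an adjusted p under 0.05.

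Levels were first compared between genes within the control groups, as CPM per kilobase of exon. Among ligands in siCtl cells with vehicle of the GATA6 experiment, SEMA4B, a transmembrane class 4 semaphorin, led with 36.9 ± 1.55 CPM per kb. The secreted SEMA3F, a ligand held by NRP2, had 29.5 ± 0.958 CPM per kb, and SEMA3C, a ligand of both neuropilins, 26.6 ± 2.92, with libraries that overlapped. SEMA3D followed at 11.9 ± 0.337. Among receptors, PLXNB2, which binds class 4 semaphorins, had the highest level of all 31 genes at 46.4 ± 2.28 CPM per kb, and PLXNA1, an A-type plexin that works with neuropilins, 11.7 ± 0.550. NRP1 stood at 32.4 ± 0.618 CPM per kb and NRP2 at 2.57 ± 0.0979. From SEMA5B (1.31 ± 0.208) down to SEMA4G (0.953 ± 0.0410), 7 genes followed each other with overlapping libraries, among them SEMA3A, PLXND1 and PLXNA4. SEMA6A (0.0803 ± 0.00532) and SEMA7A (0.0950 ± 0.0774) lay lower still. The order at the top differed between experiments, which were not tested against each other and of which the AP-1 samples carry a polyA label. In DMSO 4 h PLXNB2 (44.7 ± 1.02) was followed by SEMA3F (34.8 ± 3.39). In siCtl cells with vehicle of the AP-1 experiment SEMA3C came first (43.4 ± 1.31), then NRP1 (36.6 ± 1.03) and PLXNB2 (32.4 ± 2.63). Counting by strand is not stated, and exons of NRP1, NRP2, PLXNA3, PLXNC1, SEMA3F, SEMA4G, SEMA5A and SEMA6A overlap exons of a gene on the other strand in GENCODE v29 (GRCh38), so that those reads could not be told apart.

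**Figure D1:**
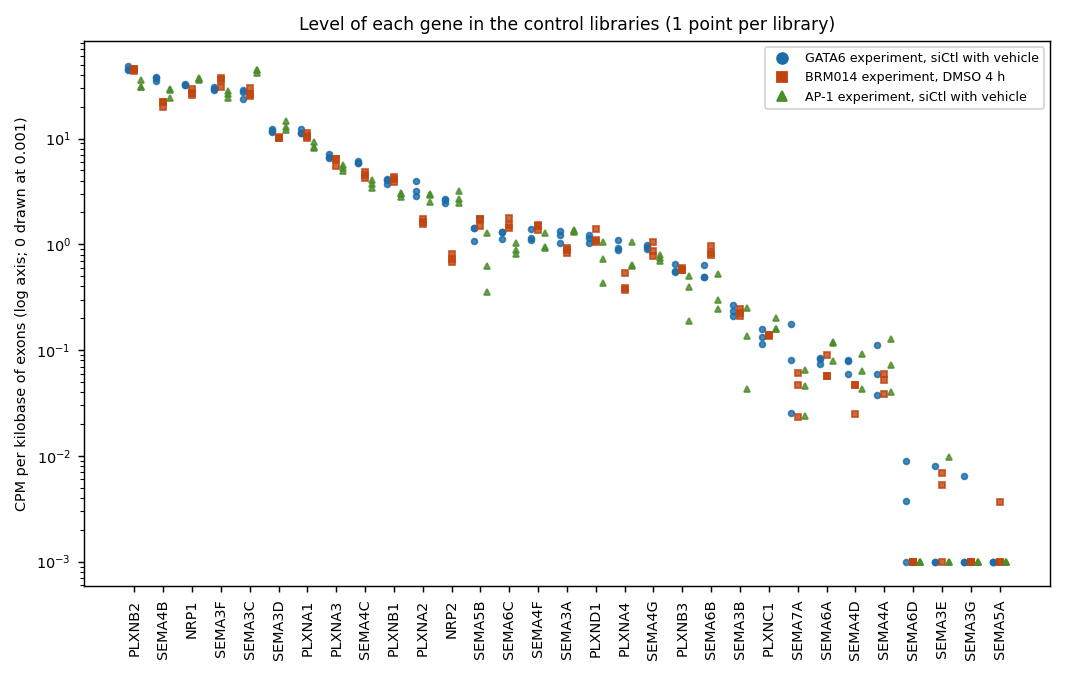
Level of each of the 31 genes in the control libraries of the 3 experiments, in CPM per kilobase of exon on a log axis, 1 point per library, with values of 0 drawn at 0.001. PLXNB2, SEMA4B, NRP1, SEMA3F and SEMA3C form the upper end in all 3 experiments, and SEMA3E, SEMA3G, SEMA5A and SEMA6D lie near 0.

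Promoter sequence is shown for SEMA5B, PLXNA4 and PLXND1, which had among the largest changes described below. The 250 bases before the RefSeq start (GRCh38.p14) are given 5′ to 3′ on the gene's own strand, which is the minus strand for each. The RefSeq starts used for PLXNA4 and PLXND1 lie inside the genes as GENCODE v29 draws them. Capitals mark the only match to a motif searched in these stretches, TTATCT in SEMA5B, the reverse complement of the GATA factor motif AGATAA, 229 bases before the start. The SEMA5B stretch stands before 1 of 3 RefSeq starts of this gene, whereas PLXNA4 and PLXND1 have 1 each. Which SEMA5B start is used in these cells was not tested.
SEMA5B promoter, chr3:123028606-123028855: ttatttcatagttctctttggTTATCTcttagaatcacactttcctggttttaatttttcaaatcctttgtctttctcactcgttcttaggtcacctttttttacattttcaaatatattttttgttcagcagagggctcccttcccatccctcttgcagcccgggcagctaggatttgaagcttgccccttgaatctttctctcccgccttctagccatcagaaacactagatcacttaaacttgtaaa
PLXNA4 promoter, chr7:132576471-132576720: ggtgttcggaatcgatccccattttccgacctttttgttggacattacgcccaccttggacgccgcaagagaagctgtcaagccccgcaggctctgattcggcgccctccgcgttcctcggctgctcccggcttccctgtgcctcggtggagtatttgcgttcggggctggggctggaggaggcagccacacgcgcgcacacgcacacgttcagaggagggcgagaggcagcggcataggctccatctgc
PLXND1 promoter, chr3:129606677-129606926: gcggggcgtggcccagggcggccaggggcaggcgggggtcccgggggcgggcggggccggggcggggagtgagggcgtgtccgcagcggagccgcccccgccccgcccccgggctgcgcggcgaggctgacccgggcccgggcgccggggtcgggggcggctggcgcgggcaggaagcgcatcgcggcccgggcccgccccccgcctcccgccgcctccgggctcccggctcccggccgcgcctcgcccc
The SEMA5B stretch has 39.2% GC and 3 CG dinucleotides, against 63.6% and 23 in PLXNA4 and 88.8% and 41 in PLXND1. Over windows of 300 bases around the starts, 27 of the 31 genes matched RefSeq with 48 windows, and NRP1, SEMA3A, SEMA6A and SEMA6B did not match. Read on both strands, AGATAA stood in 3 of the 48 windows (SEMA5B and SEMA3E) and in 10.3% of 35116 windows of all genes. The AP-1 motif TGANTCA stood in 1 (PLXNC1) against 7.71% of all windows, and the glucocorticoid receptor's palindromic motif in 0 against 0.39%. A match describes letters in this window and not a bound site.

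The first comparison asked how 2 h of DEX acted on the members in siCtl and in siGATA6 cells. In both, the transmembrane ligands SEMA4B, SEMA6A and SEMA6C, the receptor PLXNB1 and the co-receptor NRP1 rose, and SEMA6A had the largest change. In siCtl cells 7 of 26 tested members passed the test, 5 higher and 2 lower, against 8.74% higher and 7.2% lower, in sum 15.9% of all 13897 genes. In siGATA6 cells 5 passed, all higher, against 7.98% higher and 7.96% lower, in sum 15.9%, so that this share is close to that of all genes. The median log2FC of the members was -0.07 and -0.01, against -0.00 and -0.00 over all genes.

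SEMA6A (GRCh38, chromosome 5, 116443616 to 116574934, minus strand), a ligand of PLXNA2 and PLXNA4, was at 0.924, 0.813 and 0.900 CPM in the 3 siCtl libraries with vehicle and at 2.83, 3.41 and 2.75 CPM with DEX. Every DEX library lay above every vehicle library, a 3.39-fold rise (log2FC 1.76 with a standard error of 0.230, adjusted p = 3.72e-06). In siGATA6 cells it was at 0.818, 0.884 and 0.984 CPM with vehicle and 2.48, 1.70 and 1.67 CPM with DEX (log2FC 1.07 with a standard error of 0.234, adjusted p = 0.00192). The groups again did not overlap. SEMA6C, a class 6 ligand, rose from 7.25 ± 0.643 to 9.94 ± 0.636 CPM in siCtl (log2FC 0.44 with a standard error of 0.114, adjusted p = 0.00775) and from 5.58 ± 0.748 to 8.45 ± 0.545 CPM in siGATA6 cells (log2FC 0.60). SEMA4B rose from 258.5 ± 10.9 to 329 ± 28.5 CPM (log2FC 0.35 with a standard error of 0.0637, adjusted p = 6.01e-04) and from 262.03 ± 19.7 to 349.3 ± 18.6 CPM (log2FC 0.41 with a standard error of 0.0633, adjusted p = 9.36e-05). SEMA6B, a ligand of PLXNA4, fell in siCtl cells from 2.38 ± 0.384 to 1.61 ± 0.0772 CPM (log2FC -0.62 with a standard error of 0.197, adjusted p = 0.0334), whereas its log2FC in siGATA6 cells was -0.23 (adjusted p = 0.462).

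Among receptors, PLXNB1, the receptor of SEMA4D, rose from 38.5 ± 1.97 to 44.6 ± 0.309 CPM in siCtl cells (log2FC 0.21, adjusted p = 0.0365) and from 37.8 ± 3.36 to 46.4 ± 3.85 in siGATA6 cells (log2FC 0.29, adjusted p = 0.00288). PLXNB2 fell in siCtl cells from 336 ± 16.5 to 295 ± 3.36 CPM (log2FC -0.19, adjusted p = 0.00978). NRP1 rose from 374 ± 7.12 to 446 ± 2.94 CPM (log2FC 0.25 with a standard error of 0.0427, adjusted p = 1.06e-04) and from 407 ± 18.8 to 481 ± 18.3 CPM (log2FC 0.24). The groups did not overlap for any of the members named. The replicate numbers pair the libraries here, and with them as a block 12 members passed in siCtl cells, against 22.8% of all genes with the block. This added SEMA3D (0.13), NRP2 (0.19), PLXNA3 (-0.13), PLXNA2 (-0.22) and SEMA3F (-0.15). In siGATA6 cells 8 passed against 22.8%, adding PLXNB2 (-0.13), NRP2 (-0.18) and SEMA3F (-0.14). In siCtl cells the calls were lost for PLXNB2 without siCtl vehicle replicate 1 (log2FC -0.15, adjusted p = 0.0835) and for SEMA6B without any 1 of siCtl vehicle replicate 3 or siCtl DEX replicates 1, 2 and 3 (adjusted p = 0.0654 to 0.267). That of PLXNB1 was lost without any 1 of siCtl vehicle replicates 2 and 3 or siCtl DEX replicates 1, 2 and 3 (adjusted p = 0.0668 to 0.137).

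Lowering GATA6 was compared with siCtl without and with DEX. With vehicle, 11 of 26 tested members passed, 5 higher and 6 lower, against 12.1% higher and 11.6% lower, in sum 23.7% of all genes. With DEX 9 passed, 5 higher and 4 lower, against 11.1% higher and 11.5% lower, in sum 22.6%. In both conditions the ligands SEMA3D and SEMA5B and the receptor PLXNA2 fell, and the ligands SEMA3A and SEMA3F and the receptor PLXNA1 rose. The members' median log2FC was 0.00 with vehicle and 0.08 with DEX. The small nuclear RNA RN7SK was also higher in siGATA6 libraries (log2FC 1.48 with vehicle and 1.66 with DEX), as was the ribosomal precursor RNA45S5 (1.61 in both), and their part in these results was not tested. Of the 6 endothelial markers 2 were tested and both rose, with a list median log2FC of 1.12 with vehicle and 1.03 with DEX. Their sum was 4.79 to 5.36 CPM in siCtl and 9.198 to 11.8 CPM in siGATA6 cells with vehicle, and 4.71 to 5.33 and 10.0 to 10.6 CPM with DEX, where PECAM1, TIE1 and VWF were at 0 in siCtl cells and CDH5 in siGATA6 cells. Of the 6 immune markers 2 were tested. With vehicle 0 passed by edgeR, and with DEX both fell. The 6 summed to 2.79 to 3.52 CPM in siCtl and 1.77 to 2.15 CPM in siGATA6 cells with DEX, with CD3E at 0 in both groups. Of 2 tested epithelial markers 0 passed with vehicle and 1 rose with DEX. The part of these markers in the members' values was not tested.

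SEMA3D, a secreted class 3 ligand (GRCh38, chromosome 7, 84995553 to 85186855, minus strand), was at 95.3, 93.3 and 98.7 CPM in siCtl and 61.9, 64.4 and 64.4 CPM in siGATA6 cells with vehicle (log2FC -0.59 with a standard error of 0.0536, adjusted p = 3.52e-08). With DEX it fell from 104 ± 4.86 to 63.0 ± 4.50 CPM (log2FC -0.73 with a standard error of 0.0536, adjusted p = 1.33e-09). The siGATA6 libraries lay well below all siCtl libraries in both conditions. SEMA5B, a transmembrane ligand with thrombospondin repeats (GRCh38, chromosome 3, 122909082 to 123028605, minus strand), was at 12.2, 9.08 and 12.1 CPM in siCtl and 6.11, 4.94 and 6.37 CPM in siGATA6 cells (log2FC -0.95 with a standard error of 0.185, adjusted p = 0.00162), and fell from 10.1 ± 2.35 to 5.83 ± 1.18 CPM with DEX (log2FC -0.78, adjusted p = 0.00786). SEMA3F rose from 142 ± 4.62 to 179 ± 9.198 CPM (log2FC 0.33, adjusted p = 7.87e-04) and SEMA3A, the founding repellent of the family, from 11.2 ± 1.48 to 15.5 ± 0.631 CPM (log2FC 0.45, adjusted p = 0.00111). Their log2FCs with DEX were 0.34 and 0.27. SEMA6C (-0.38) and SEMA4G (-0.37), a class 4 ligand, fell with vehicle. With DEX, SEMA6A fell from 3.00 ± 0.363 to 1.95 ± 0.459 CPM (log2FC -0.66, adjusted p = 0.0174) and SEMA6B rose from 1.61 ± 0.0772 to 2.41 ± 0.156 CPM (log2FC 0.60, adjusted p = 0.0288).

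PLXNA2, an A-type plexin that receives class 3 and class 6 ligands, was at 54.2, 44.3 and 39.6 CPM in siCtl and 26.7, 25.8 and 27.1 CPM in siGATA6 cells with vehicle (log2FC -0.78 with a standard error of 0.111, adjusted p = 1.69e-04). With DEX it fell from 39.2 ± 4.90 to 24.0 ± 2.19 CPM (log2FC -0.72). PLXNA1 moved the other way, from 128 ± 6.02 to 157 ± 9.63 CPM (log2FC 0.30 with a standard error of 0.0476, adjusted p = 8.03e-05) and with DEX from 128 ± 2.10 to 165 ± 4.56 (log2FC 0.36). PLXNA4 fell with vehicle (log2FC -0.29) and PLXNB2 rose with DEX (log2FC 0.15). NRP2 rose with vehicle from 35.8 ± 1.36 to 49.2 ± 4.09 CPM (log2FC 0.45 with a standard error of 0.0649, adjusted p = 2.09e-05), and stood at 41.0 ± 1.40 and 43.5 ± 2.87 CPM with DEX (log2FC 0.08, adjusted p = 0.414). NRP1 rose with vehicle by 0.12 on the log2 scale. With the replicate block, PLXNB2 (0.09) and SEMA7A (1.13) also passed with vehicle, and NRP1 (0.11) and SEMA3C (-0.16) with DEX, against 32.7% and 32.4% of all genes with the block.

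Several of the smaller calls were lost when 1 library was left out, whichever of several libraries that was. With vehicle the call was lost for NRP1 without any 1 of siCtl vehicle replicates 1 and 2 or siGATA6 vehicle replicates 1 and 2 (adjusted p = 0.0835 to 0.191), and for SEMA6C without any 1 of siCtl vehicle replicates 1 and 3 or siGATA6 vehicle replicates 1 and 2 (adjusted p = 0.0603 to 0.119). It was also lost for PLXNA4 without any 1 of siCtl vehicle replicate 1 or siGATA6 vehicle replicates 1, 2 and 3 (adjusted p = 0.0521 to 0.157), and for SEMA4G without any 1 of the 6 libraries (adjusted p = 0.0756 to 0.141). With DEX it was lost for SEMA6A without any 1 of siCtl DEX replicate 2 or siGATA6 DEX replicates 2 and 3 (adjusted p = 0.0695 to 0.103) and for SEMA6B without any 1 of siCtl DEX replicates 1, 2 and 3 or siGATA6 DEX replicates 2 and 3 (adjusted p = 0.0539 to 0.108). The same held for PLXNB2 without any 1 of siCtl DEX replicates 1, 2 and 3 or siGATA6 DEX replicates 1 and 3 (adjusted p = 0.0613 to 0.159), and for SEMA3A without any 1 of siCtl DEX replicates 1, 2 and 3 or siGATA6 DEX replicates 1 and 2 (adjusted p = 0.0569 to 0.150). Whether siGATA6 altered the response to DEX was tested as an interaction, in which 0 of 26 members passed edgeR's test, with 1 at an unadjusted p under 0.05 and 0 by DESeq2, against 0.0935% higher and 0.245% lower, in sum 0.338% of all genes. That 1 member was NRP2 (log2FC -0.37, adjusted p = 0.101). Same-numbered libraries correlated here at 0.09 to 0.288, so that not every pair passed the cutoff of 0.1 used for pairing. With the replicate block NRP2 did pass edgeR's test (log2FC -0.37, adjusted p = 0.00823), against 1.81% of all genes with the block. The result for NRP2 thus depends on whether the numbers are taken to pair the libraries.

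**Figure D2:**
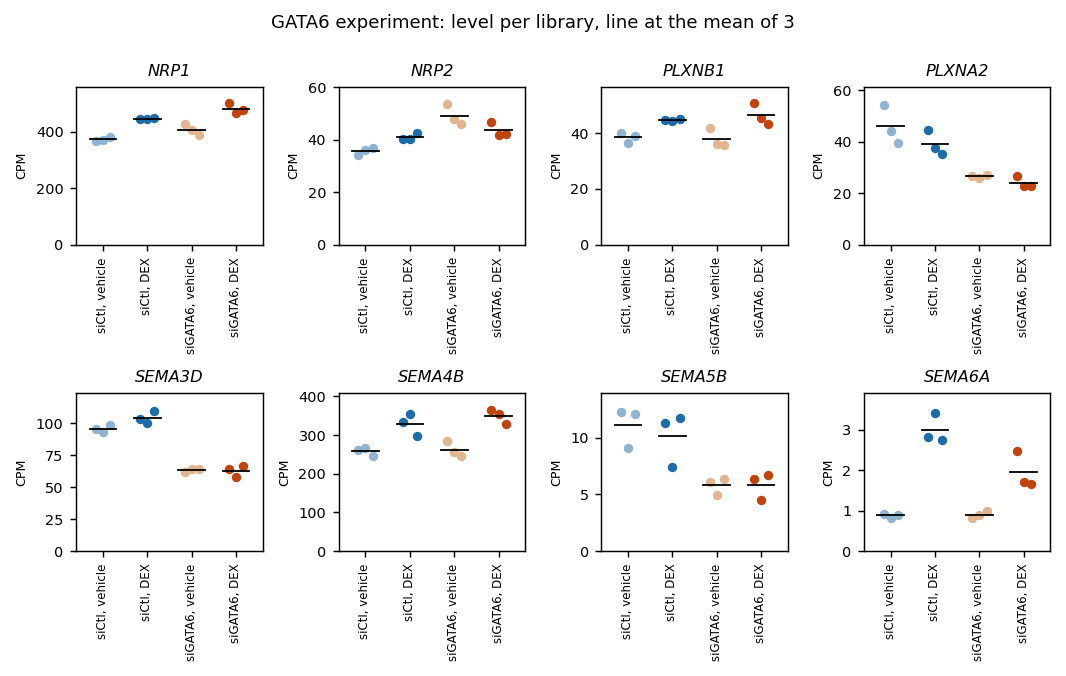
CPM of 8 members in the 4 groups of the GATA6 experiment, with 1 point per library and a line at the mean of 3. SEMA6A is raised in the DEX groups, whereas SEMA3D, SEMA5B and PLXNA2 are lower in both siGATA6 groups.

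Inhibition of SWI/SNF by BRM014 was read at 4 h and 24 h. At 4 h 1 of 27 tested members passed, NRP1, against 4.61% higher and 4.06% lower, in sum 8.68% of all 14547 genes. At 24 h 9 passed, 2 higher and 7 lower, against 15.1% higher and 16.4% lower, in sum 31.5%, a share close to that of all genes. PLXNA4 fell 18.1-fold and SEMA5B 7.25-fold. SEMA3F, SEMA4B, PLXNA2 and NRP2 each fell with log2FCs from -1.74 to -1.21. Summed over the 8 epithelial and hormone receptor markers, levels were 8.08 to 9.52 CPM in DMSO and 3.23 to 3.42 CPM with BRM014 at 24 h. The 6 endothelial markers summed to 3.27 to 4.13 and 1.13 to 1.53 CPM, and the 6 immune markers to 2.48 to 5.13 and 1.08 to 1.48 CPM. Of these lists 1 of 4, 1 of 2 and 1 of 3 tested genes fell and 0 rose by edgeR, ESR1, KRT14, PGR and TIE1 were among those at 0 with BRM014, and their part in the members' values was not tested. Between the DMSO controls, 0 of 27 members passed at 24 h against 4 h, with 0 at an unadjusted p under 0.05 and 0 by DESeq2, against 0% of all genes.

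SEMA5B was at 21.7, 14.1 and 5.96 CPM in DMSO and 2.40, 2.33 and 1.03 CPM after 24 h of BRM014 (log2FC -2.86 with a standard error of 0.378, adjusted p = 8.89e-06). The groups did not overlap, although the DMSO libraries spread widely. SEMA3F (GRCh38, chromosome 3, 50155045 to 50189075, plus strand) was at 169, 190.0 and 206 CPM in DMSO and 65.7, 75.4 and 55.4 CPM with BRM014 (log2FC -1.52 with a standard error of 0.141, adjusted p = 5.65e-08). SEMA4B (GRCh38, chromosome 15, 90160604 to 90229679, plus strand) was at 175, 160.1 and 119 CPM and 67.5, 73.8 and 55.1 CPM (log2FC -1.21 with a standard error of 0.168, adjusted p = 1.09e-05). Both ligands were lower in every BRM014 library than in any DMSO library. SEMA6A went the other way, from 0.812, 0.621 and 0.272 CPM to 1.88, 0.964 and 1.07 CPM (log2FC 1.20 with a standard error of 0.423, adjusted p = 0.0350), and the call was lost without any 1 of DMSO 24 h replicates 2 and 3 or BRM014 24 h replicate 1 (adjusted p = 0.0648 to 0.195).

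Of the receptors, PLXNA4, which receives class 3 and class 6 semaphorins (GRCh38, chromosome 7, 132123332 to 132648688, minus strand), was at 8.52, 8.30 and 6.53 CPM in DMSO and 0.393, 0.563 and 0.318 CPM with BRM014 (log2FC -4.18 with a standard error of 0.262, adjusted p = 2.81e-10). PLXNA2 (GRCh38, chromosome 1, 208022242 to 208244320, minus strand) was at 29.8, 26.0 and 18.6 CPM and 12.5, 11.6 and 6.71 CPM (log2FC -1.27 with a standard error of 0.225, adjusted p = 1.85e-04). Neither group of BRM014 libraries reached into the DMSO range. PLXNB2 fell from 335 ± 29.04 to 239 ± 41.8 CPM (log2FC -0.49, adjusted p = 0.0133), a call lost without any 1 of DMSO 24 h replicate 1 or BRM014 24 h replicate 3 (adjusted p = 0.0506 to 0.0722). PLXNB1 rose from 41.7 ± 3.18 to 61.4 ± 9.31 CPM (log2FC 0.56 with a standard error of 0.153, adjusted p = 0.00764). NRP2 (GRCh38, chromosome 2, 205681990 to 205798133, plus strand) was at 13.0, 11.4 and 7.59 CPM in DMSO and 3.62, 3.05 and 2.90 CPM with BRM014 (log2FC -1.74 with a standard error of 0.172, adjusted p = 1.38e-07). NRP1 (GRCh38, chromosome 10, 33177492 to 33336262, minus strand) fell at 4 h, from 316 ± 20.2 to 250.5 ± 9.26 CPM (log2FC -0.33 with a standard error of 0.0784, adjusted p = 0.00950), and stood at 336 ± 6.89 and 325 ± 17.7 CPM at 24 h (log2FC -0.05, adjusted p = 0.710).

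The change from 4 h to 24 h of the BRM014 effect was itself tested, and 6 of 27 members passed, all lower at 24 h, against 2.89% higher and 6.55% lower, in sum 9.44% of all genes. They were the receptor PLXNA4 (log2FC -3.95 with a standard error of 0.333, adjusted p = 1.42e-07), the ligand SEMA5B (log2FC -2.93 with a standard error of 0.501, adjusted p = 6.42e-04), the co-receptor NRP2 (log2FC -1.75), the ligand SEMA3F (-1.43), the receptor PLXNA2 (-1.40) and the ligand SEMA4B (-1.04). After 4 h of BRM014 PLXNA4 was at 5.36, 5.41 and 7.23 CPM, against 6.35, 8.68 and 5.995 CPM in DMSO 4 h. SEMA5B was at 14.9 ± 2.75 against 14.1 ± 1.26 CPM, and NRP2 at 10.3 ± 1.84 against 10.2 ± 0.873 CPM. SEMA3C and SEMA3D, the other 2 abundant class 3 ligands, were not called at 24 h: SEMA3C was at 151, 127 and 166 CPM in DMSO and 329, 102 and 309 CPM with BRM014. SEMA3D was at 31.4, 32.2 and 105 CPM and 131, 15.1 and 153 CPM, with the GC-rich replicate 2 lowest of the BRM014 group for both. Without the GC-rich libraries SEMA3C was called as higher with BRM014 at 24 h (log2FC 1.10, adjusted p = 8.77e-05), at 4 h (log2FC 0.58, adjusted p = 0.0406) and at 4 h in DEX cells (log2FC 1.26, adjusted p = 6.62e-05). SEMA3A was then called as higher at 24 h too (log2FC 0.99, adjusted p = 0.0247), while SEMA3D was not (log2FC 1.33, adjusted p = 0.126). These values rest on 2 libraries in each BRM014 group that holds a GC-rich library. In BRM014 cells both SEMA3A (log2FC -1.84, adjusted p = 0.00431) and SEMA3C (log2FC -0.86, adjusted p = 0.00476) were called as lower with DEX at 24 h without them.

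The DEX comparisons of 4 h and 24 h share no control library. At 4 h 5 of 27 members passed, all higher, against 7.77% higher and 4.78% lower, in sum 12.5% of all genes. Of these, 4 were transmembrane ligands: SEMA6A, SEMA6C, SEMA4B and SEMA4C, with NRP1 the fifth. At 24 h 8 passed, 2 higher and 6 lower, against 12.6% higher and 13% lower, in sum 25.6%. The members' share in either direction, 29.6%, lies near that sum. SEMA5B fell 23.7-fold and PLXND1 rose 3.67-fold. The members' median log2FC was 0.12 at 4 h and -0.14 at 24 h, against -0.01 and -0.02 over all genes.

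At 4 h SEMA6A was at 0.622, 0.617 and 0.990 CPM in DMSO and 3.84, 4.78 and 5.98 CPM with DEX, a 6.65-fold rise with no overlap (log2FC 2.73 with a standard error of 0.388, adjusted p = 2.50e-05). SEMA6C rose from 9.12 ± 1.05 to 17.6 ± 4.18 CPM (log2FC 0.95 with a standard error of 0.181, adjusted p = 7.06e-04). SEMA4B rose from 149.6 ± 9.204 to 274 ± 38.6 CPM (log2FC 0.88 with a standard error of 0.166, adjusted p = 6.79e-04), and SEMA4C, a ligand of PLXNB2, from 28.0 ± 1.89 to 39.2 ± 4.17 CPM (log2FC 0.49, adjusted p = 0.00589). NRP1 rose from 316 ± 20.2 to 473 ± 14.1 CPM (log2FC 0.58 with a standard error of 0.0786, adjusted p = 1.25e-05). With the replicate block, PLXND1 also passed as higher (0.88, adjusted p = 0.0180) and SEMA3F as lower (-0.41, adjusted p = 0.0275), against 15.4% of all genes with the block.

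At 24 h SEMA5B was at 21.7, 14.1 and 5.96 CPM in DMSO and 0.782, 0.574 and 0.304 CPM with DEX (log2FC -4.57 with a standard error of 0.449, adjusted p = 2.66e-07). All 3 DEX libraries lay under 1 CPM. SEMA3A (GRCh38, chromosome 7, 83955777 to 84492724, minus strand) was at 5.83, 6.17 and 8.61 CPM in DMSO and 1.43, 0.353 and 3.80 CPM with DEX (log2FC -2.01 with a standard error of 0.648, adjusted p = 0.0290). The lowest of these 6 values is from a GC-rich library. Without the GC-rich libraries SEMA3A was still called (log2FC -1.50, adjusted p = 0.0125), but not without any 1 of DMSO 24 h replicate 3 or DEX 24 h replicates 1 and 2 (adjusted p = 0.0812 to 0.128). SEMA3F fell from 188 ± 18.2 to 117 ± 12.6 CPM (log2FC -0.69, adjusted p = 7.84e-04) and SEMA4F, a class 4 ligand, from 10.0 ± 0.981 to 6.47 ± 0.182 CPM (log2FC -0.63, adjusted p = 2.30e-04). SEMA6C rose from 11.3 ± 0.763 to 16.6 ± 2.99 CPM (log2FC 0.56, adjusted p = 0.0251), a call lost without any 1 of DMSO 24 h replicates 1 and 3 or DEX 24 h replicate 2 (adjusted p = 0.0601 to 0.141) and without the GC-rich libraries (log2FC 0.41, adjusted p = 0.0946). SEMA6A, raised at 4 h, was at 0.812, 0.621 and 0.272 CPM in DMSO and 1.47, 0.309 and 0.684 CPM with DEX at 24 h, with overlapping groups (adjusted p = 0.425).

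PLXND1, the receptor of SEMA3E (GRCh38, chromosome 3, 129555175 to 129606818, minus strand), was at 18.0, 11.6 and 6.26 CPM in DMSO and 55.8, 46.5 and 29.03 CPM with DEX (log2FC 1.88 with a standard error of 0.324, adjusted p = 2.52e-04). Its DEX libraries lay above every DMSO library, and replicate 3 was the lowest of both groups. SEMA3E itself had 21 counts over all libraries. PLXNA4 was at 8.52, 8.30 and 6.53 CPM in DMSO and 3.50, 3.75 and 2.89 CPM with DEX (log2FC -1.19 with a standard error of 0.209, adjusted p = 2.12e-04), without overlap. NRP2 fell from 10.7 ± 2.79 to 6.35 ± 0.626 CPM (log2FC -0.74 with a standard error of 0.166, adjusted p = 0.00209), and NRP1 stood at 336 ± 6.89 and 315 ± 12.6 CPM. The NRP2 call was lost in a fit of only the compared groups. Of the epithelial and hormone receptor markers, 1 of 4 tested rose and 3 fell here, and all 8 summed to 8.08 to 9.52 CPM in DMSO and 10.4 to 12.5 CPM with DEX. The 6 endothelial markers summed to 3.27 to 4.13 and 0.883 to 1.61 CPM, and 1 of 2 tested fell. The 6 immune markers summed to 2.48 to 5.13 and 1.22 to 2.85 CPM, and 0 of 3 tested passed by edgeR. The part of these markers in the members' values was not tested. With the replicate block SEMA6B (-0.79), SEMA4B (0.42) and SEMA4C (0.30) were called as well, against 31.2% of all genes with the block.

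Between the times, the DEX effect differed for 6 of 27 members, all lower at 24 h, against 2.61% higher and 6.28% lower, in sum 8.9% of all genes: SEMA5B (log2FC -4.13 with a standard error of 0.565, adjusted p = 8.52e-05), SEMA6A (log2FC -2.17 with a standard error of 0.612, adjusted p = 0.0289), PLXNA4 (log2FC -1.48), NRP2 (-0.95), SEMA4F (-0.75) and NRP1 (-0.68). SEMA6A and NRP1 had risen at 4 h, while SEMA5B, PLXNA4, NRP2 and SEMA4F fell at 24 h. For SEMA6A the call was lost without any 1 of DMSO 4 h replicates 1 and 2, DEX 4 h replicate 3, DMSO 24 h replicates 1 and 2 or DEX 24 h replicates 2 and 3 (adjusted p = 0.0528 to 0.141) and without the GC-rich libraries (log2FC -1.73, adjusted p = 0.0623).

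The response to DEX was then read in cells given BRM014. At 4 h 4 of 27 members passed, all higher, against 3.79% higher and 2.33% lower, in sum 6.12% of all genes. At 24 h 6 passed, 5 higher and 1 lower, against 7.55% higher and 6.21% lower, in sum 13.8%. SEMA4B rose at both times, SEMA7A rose at 4 h from close to 0, and at 24 h PLXNA4 rose and SEMA5B fell. SEMA6A, by contrast, was at 0.920, 0.705 and 1.33 CPM with BRM014 and 1.46, 1.34 and 1.36 CPM with both agents at 4 h and did not pass (log2FC 0.49, adjusted p = 0.674). At 24 h, epithelial markers summed to 3.23 to 3.42 CPM with BRM014 and 1.65 to 2.98 CPM with both agents, and 1 of 4 tested rose and 2 fell. Immune markers summed to 1.08 to 1.48 and 0.558 to 0.826 CPM, and 1 of 3 tested fell. Of 2 tested endothelial markers 0 passed by edgeR. The part of these markers in the members' values was not tested.

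SEMA7A, the lipid-anchored ligand of PLXNC1 and of β1 integrins (GRCh38, chromosome 15, 74409289 to 74433958, minus strand), was at 0.108, 0.0784 and 0.0808 CPM with BRM014 and 1.36, 1.59 and 1.70 CPM with BRM014 and DEX at 4 h (log2FC 4.07 with a standard error of 0.399, adjusted p = 4.93e-07). This rests on 106 against 6 counts, a CPM ratio of 17.9 with a 0.95 exact counting interval of 7.95 to 49.8, which covers counting error only. All 3 libraries with both agents lay far above the rest of the BRM014 experiment, where no other group mean passed 0.366 CPM. SEMA4B was at 134, 117 and 148 CPM and 264.2, 283 and 255.6 CPM at 4 h (log2FC 1.01 with a standard error of 0.166, adjusted p = 3.27e-04), and at 67.5, 73.8 and 55.1 CPM and 281, 321 and 209 CPM at 24 h (log2FC 2.05 with a standard error of 0.171, adjusted p = 3.43e-08). No library overlapped at either time. SEMA5B was at 2.40, 2.33 and 1.03 CPM with BRM014 and 0.354, 0.419 and 0.159 CPM with both at 24 h (log2FC -2.57 with a standard error of 0.524, adjusted p = 0.00188), a call lost without the GC-rich libraries (log2FC -2.63, adjusted p = 0.0725).

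PLXNA4 was at 0.393, 0.563 and 0.318 CPM with BRM014 and 1.85, 1.49 and 1.06 CPM with both agents at 24 h (log2FC 1.79 with a standard error of 0.291, adjusted p = 1.74e-04), so that here DEX went with a rise, where in DMSO cells it went with a fall. NRP2 rose from 3.19 ± 0.381 to 4.99 ± 0.457 CPM at 24 h (log2FC 0.65, adjusted p = 0.0149), and SEMA4C from 27.6 ± 2.52 to 36.8 ± 3.93 CPM (log2FC 0.42, adjusted p = 0.0190). NRP1 rose at 4 h from 250.5 ± 9.26 to 310.5 ± 7.71 CPM (log2FC 0.31, adjusted p = 0.0171). SEMA3G, a secreted ligand under 1 CPM throughout and thus below the level asked for naming, passed at both times. In a fit of only the compared groups it had too few counts to be tested at either time, so the counts below are a description. At 4 h it had 14 against 2 counts, a CPM ratio of 7.09 with a 0.95 exact counting interval of 1.63 to 64.3. At 24 h it had 29 against 7 counts, a CPM ratio of 4.60 with a 0.95 exact counting interval of 1.97 to 12.4. At 24 h the replicate block gave 10 members in place of 6, against 18.6% of all genes, adding PLXNB2 (0.40), SEMA6C (0.47), SEMA3A (-1.69) and PLXND1 (0.89). The 4 h calls were lost for NRP1 without any 1 of BRM014 4 h replicate 3 or BRM014 with DEX 4 h replicates 1 and 2 (adjusted p = 0.0624 to 0.0754) and without the GC-rich libraries (log2FC 0.27, adjusted p = 0.138). That of SEMA3G was lost without any 1 of the 6 libraries (adjusted p = 0.0551 to 0.191) and without the GC-rich libraries (log2FC 3.05, adjusted p = 0.137). Those of 24 h were lost for NRP2 without any 1 of BRM014 24 h replicates 2 and 3 or BRM014 with DEX 24 h replicate 1 (adjusted p = 0.0507 to 0.0657) and without the GC-rich libraries (log2FC 0.68, adjusted p = 0.0823). They were also lost for SEMA4C without any 1 of BRM014 24 h replicates 1 and 3 or BRM014 with DEX 24 h replicates 1 and 2 (adjusted p = 0.0678 to 0.0855) and for SEMA3G without the GC-rich libraries (log2FC 1.98, adjusted p = 0.0730).

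BRM014 was also compared with DMSO within DEX-treated cells, using the same DEX and BRM014 with DEX libraries as above. At 4 h 5 of 27 members passed, 1 higher and 4 lower, against 5.38% higher and 7.44% lower, in sum 12.8% of all genes. SEMA7A rose from 0.256, 0.254 and 0.256 CPM to 1.36, 1.59 and 1.70 CPM (log2FC 2.58 with a standard error of 0.332, adjusted p = 1.02e-05). SEMA6A fell from 3.84, 4.78 and 5.98 CPM to 1.46, 1.34 and 1.36 CPM (log2FC -1.81 with a standard error of 0.353, adjusted p = 0.00113), and no library overlapped for either ligand. SEMA6C fell from 17.6 ± 4.18 to 8.999 ± 1.54 CPM (log2FC -0.97, adjusted p = 7.41e-04). NRP1 fell from 473 ± 14.1 to 310.5 ± 7.71 CPM (log2FC -0.61 with a standard error of 0.0786, adjusted p = 1.11e-05), and SEMA4C from 39.2 ± 4.17 to 30.1 ± 0.476 CPM (log2FC -0.38, adjusted p = 0.0327). The 4 that fell are members that DEX had raised at 4 h without the inhibitor, and both comparisons share the DEX 4 h libraries. The SEMA4C call was lost without any 1 of DEX 4 h replicates 2 and 3 or BRM014 with DEX 4 h replicates 1, 2 and 3 (adjusted p = 0.0804 to 0.150) and without the GC-rich libraries (log2FC -0.37, adjusted p = 0.0517).

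At 24 h 7 passed, 4 higher and 3 lower, against 17.6% higher and 17.9% lower, in sum 35.5% of all genes. Epithelial markers summed to 10.4 to 12.5 CPM with DEX and 1.65 to 2.98 CPM with both agents. Endothelial markers summed to 0.883 to 1.61 and 0.977 to 1.28 CPM, and immune markers to 1.22 to 2.85 and 0.558 to 0.826 CPM. Of these lists 1 of 4, 0 of 2 and 1 of 3 tested genes fell and 0 rose by edgeR. The part of these markers in the members' values was not tested. SEMA4F was at 6.44, 6.67 and 6.31 CPM with DEX and 12.9, 14.8 and 12.4 CPM with both agents (log2FC 1.05 with a standard error of 0.111, adjusted p = 2.94e-07). PLXND1 was at 55.8, 46.5 and 29.03 CPM and 26.8, 21.7 and 16.5 CPM (log2FC -1.02 with a standard error of 0.316, adjusted p = 0.0170). PLXNA4 was at 3.50, 3.75 and 2.89 CPM and 1.85, 1.49 and 1.06 CPM (log2FC -1.20 with a standard error of 0.233, adjusted p = 3.96e-04). SEMA4F rose and both receptors fell, each without overlap. SEMA3F fell from 117 ± 12.6 to 62.7 ± 9.29 CPM (log2FC -0.90, adjusted p = 3.67e-05) and PLXNB1 rose from 46.1 ± 4.37 to 65.0 ± 10.8 CPM (log2FC 0.49, adjusted p = 0.0158). SEMA7A and SEMA3G were called as higher at under 1 CPM, but had too few counts to be tested in a fit of only these 2 groups, and are described by their counts. SEMA7A had 24 against 4 counts, a CPM ratio of 5.25 with a 0.95 exact counting interval of 1.80 to 20.8. SEMA3G had 29 against 2 counts, a CPM ratio of 12.7 with a 0.95 exact counting interval of 3.21 to 109.8. With the replicate block NRP2 (-0.35) and SEMA4B (0.41) passed as well, against 40.2% of all genes with the block. The PLXND1 call was lost without any 1 of DEX 24 h replicate 1 or BRM014 with DEX 24 h replicate 3 (adjusted p = 0.0719 to 0.0826) and without the GC-rich libraries (log2FC -0.97, adjusted p = 0.109). That of PLXNB1 was lost without any 1 of DEX 24 h replicate 3 or BRM014 with DEX 24 h replicates 1 and 2 (adjusted p = 0.0627 to 0.0733) and without the GC-rich libraries (log2FC 0.42, adjusted p = 0.0766).

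Whether BRM014 altered the DEX effect was tested as an interaction, which is positive where DEX raised a gene more, or lowered it less, with BRM014. At 4 h 2 of 27 members passed against 0.564% higher and 1.73% lower, in sum 2.29% of all genes: SEMA7A (log2FC 3.42 with a standard error of 0.696, adjusted p = 0.00702) and SEMA6A (log2FC -2.25 with a standard error of 0.563, adjusted p = 0.0343). The SEMA6A interaction was lost without the GC-rich libraries (log2FC -1.93, adjusted p = 0.120) and without any 1 of DMSO 4 h replicates 1 and 2, BRM014 4 h replicates 1 and 3, DEX 4 h replicates 2 and 3 or BRM014 with DEX 4 h replicates 1, 2 and 3 (adjusted p = 0.0634 to 0.171). At 24 h 4 passed, all positive, against 3.77% higher and 2.78% lower, in sum 6.54%. The receptor PLXNA4 had log2FC 2.98 with a standard error of 0.357, adjusted p = 1.80e-05, with a DEX effect of -1.19 in DMSO and 1.79 in BRM014 cells on the log2 scale. The ligand SEMA4B had log2FC 1.62 with a standard error of 0.235, adjusted p = 1.40e-04, with 0.43 and 2.05. For the co-receptor NRP2 the interaction was 1.39 (adjusted p = 9.03e-04), with -0.74 and 0.65. For the ligand SEMA4F it was 0.77 (adjusted p = 0.00339), with -0.63 and 0.14. The 24 h interaction shares its DMSO, DEX and BRM014 libraries with the single comparisons above.

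**Figure D3:**
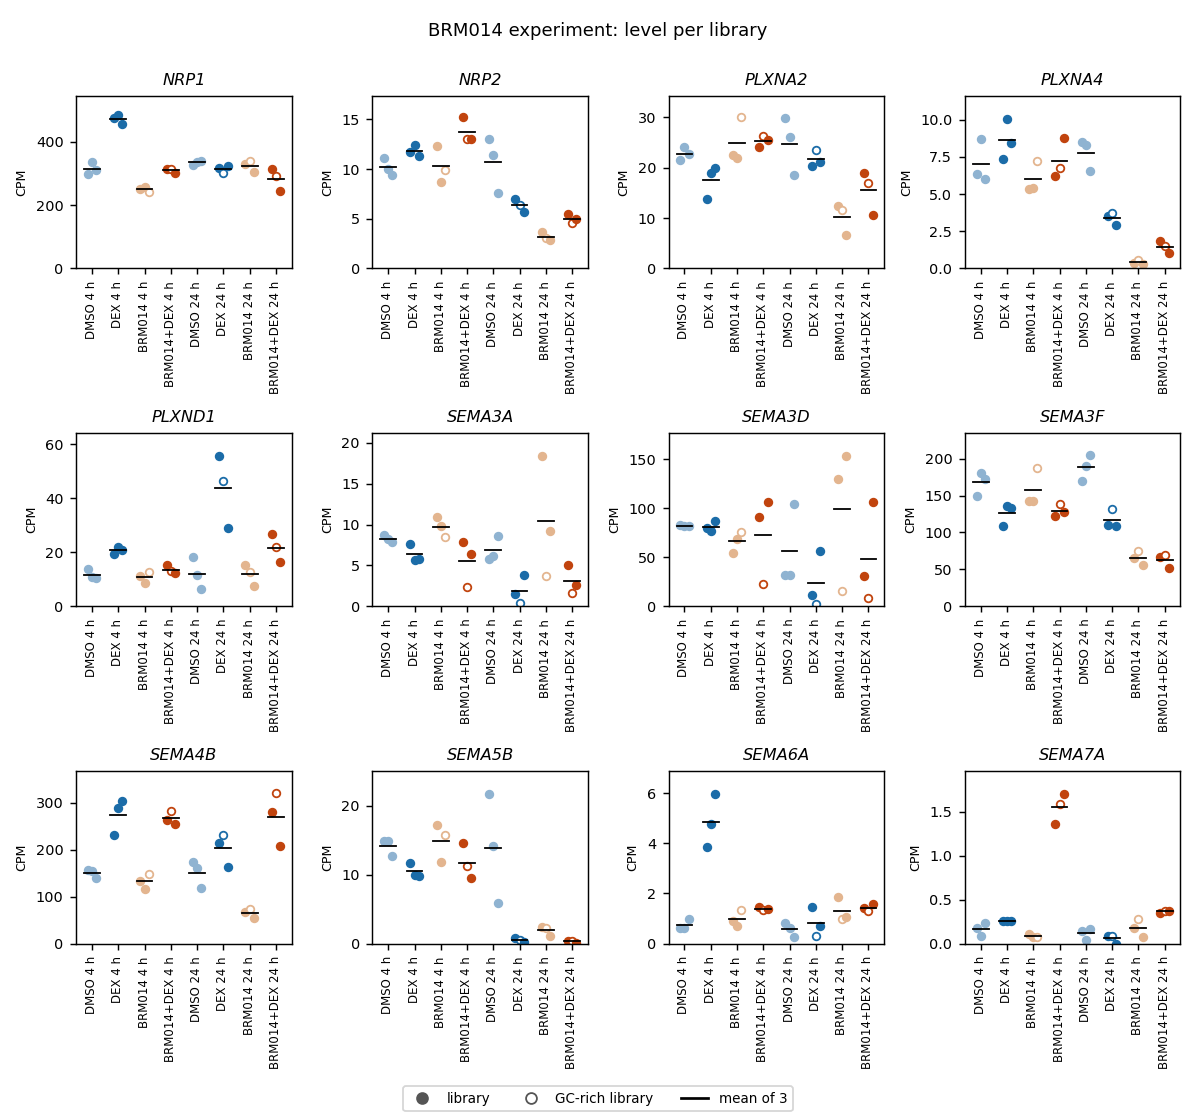
CPM of 12 members in the 8 groups of the BRM014 experiment, 1 point per library, with GC-rich libraries as open circles and a line at the mean of 3. PLXNA4, SEMA3F, SEMA5B and NRP2 are low after 24 h of BRM014, SEMA6A peaks with DEX at 4 h, SEMA7A with BRM014 and DEX at 4 h, and PLXND1 with DEX at 24 h.

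In the AP-1 experiment, cells with siRNA against FRA1 or JUN were compared with siCtl, which both knockdowns share as control. With either siRNA, and with vehicle or DEX, the secreted ligands SEMA3A and SEMA3F rose, and with siFRA1 the co-receptor NRP1 fell. With siJUN NRP1 was called as lower only with the replicate block. With vehicle 3 of 25 tested members passed for siFRA1, 2 higher and 1 lower, against 5.54% higher and 5.28% lower, in sum 10.8% of all 13658 genes. For siJUN 3 passed, 2 higher and 1 lower, against 3.68% higher and 3.14% lower, in sum 6.82%. With DEX 4 passed for siFRA1, 3 higher and 1 lower, against 6.16% higher and 6.71% lower, in sum 12.9%. For siJUN 2 passed, both higher, against 3.27% higher and 3.31% lower, in sum 6.57%. For siFRA1 with vehicle and with DEX, and for siJUN with DEX, the members' shares lie near those of all genes. With siJUN, 1 of 2 tested epithelial markers rose with vehicle and 2 with DEX, and 1 of 2 tested endothelial markers rose in each. The 8 epithelial markers summed to 5.26 to 9.78 CPM in siCtl and 14.4 to 17.6 CPM in siJUN cells with vehicle. The 6 endothelial markers summed to 3.72 to 6.08 and 6.21 to 12.4 CPM. With siFRA1 no marker of either list passed by edgeR. The part of these markers in the members' values was not tested.

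SEMA3A was at 12.2, 12.6 and 12.7 CPM in siCtl, 19.6, 18.1 and 17.0 CPM in siFRA1 and 22.9, 17.4 and 19.8 CPM in siJUN cells with vehicle. Every knockdown library lay above every siCtl library (siFRA1 log2FC 0.54 with a standard error of 0.116, adjusted p = 0.00415; siJUN log2FC 0.68 with a standard error of 0.116, adjusted p = 9.60e-04). With DEX it stood at 12.8 ± 1.36, 19.98 ± 0.503 and 21.6 ± 1.74 CPM, with log2FCs of 0.64 for siFRA1 and 0.75 for siJUN. SEMA3F was at 126, 116 and 136 CPM in siCtl, 187, 156 and 176 CPM in siFRA1 and 164, 151 and 158 CPM in siJUN cells with vehicle (log2FC 0.46, adjusted p = 0.00156, and 0.32, adjusted p = 0.0268). With DEX its log2FCs were 0.53 (adjusted p = 3.46e-04) and 0.34 (adjusted p = 0.0224).

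NRP1 was at 420.4, 411 and 435 CPM in siCtl and 235, 217 and 275 CPM in siFRA1 cells with vehicle (log2FC -0.80 with a standard error of 0.0977, adjusted p = 1.47e-05). With DEX it fell from 513 ± 31.7 to 318 ± 40.2 CPM (log2FC -0.69 with a standard error of 0.0974, adjusted p = 7.39e-05). The siFRA1 libraries were below the siCtl libraries in both conditions. In siJUN cells NRP1 was at 338.3 ± 10.7 CPM with vehicle and 418 ± 53.0 with DEX. Neither difference from siCtl passed without the replicate block (log2FC -0.32, adjusted p = 0.0511, and -0.30, adjusted p = 0.0726). With the block both passed (adjusted p = 2.28e-05 and 4.58e-05), against 18.7% and 17.2% of all genes. The lowest same-number correlations were 0.054 and 0.097 for siJUN, under the cutoff used for pairing. NRP2 fell in siJUN cells with vehicle, from 38.4 ± 5.13 to 22.7 ± 2.70 CPM (log2FC -0.76, adjusted p = 0.0495), with no overlap. PLXNA4 was at 10.4, 10.3 and 17.0 CPM in siCtl and 4.28, 4.70 and 7.59 CPM in siJUN cells with vehicle, apart from each other but not called in the fit without the block (log2FC -1.20, adjusted p = 0.115). With the block PLXNA4 passed for siJUN with vehicle (log2FC -1.19, adjusted p = 6.99e-07) and with DEX (log2FC -1.34, adjusted p = 6.41e-08). NRP2 then passed for siJUN with DEX too (log2FC -0.67, adjusted p = 2.85e-07). PLXNA1 rose in siFRA1 cells with DEX, from 99.3 ± 3.37 to 117 ± 6.48 CPM (log2FC 0.24, adjusted p = 0.0436). For siFRA1 with vehicle the replicate numbers pair the libraries, and with them as a block 11 members passed, against 24.6% of all genes. PLXND1, at 7.07, 4.19 and 10.2 CPM in siCtl and 15.3, 8.81 and 20.04 CPM in siFRA1 cells, then had a log2FC of 1.04 (adjusted p = 1.05e-06), higher in siFRA1 within each of the 3 numbers although the groups overlap. The others gained were SEMA5B (0.80), PLXNA4 (-0.58), PLXNB1 (0.27), NRP2 (-0.25), PLXNA1 (0.22), SEMA4B (-0.21) and PLXNB2 (0.19). For siFRA1 with DEX the lowest same-number correlation was 0.072, under the cutoff, and the block also gave 11 members, against 26.5% of all genes. PLXND1 (1.02, adjusted p = 2.83e-06), SEMA5B (1.06, adjusted p = 6.27e-04) and PLXNA4 (-0.66, adjusted p = 0.00119) were among those gained.

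DEX itself gave few calls in this experiment in the fit without the replicate block. Of 25 members 0 passed in siCtl and 0 in siJUN cells by edgeR, with 4 each at an unadjusted p under 0.05 and 0 each by DESeq2, against 3.46% higher and 2.05% lower, in sum 5.51% and 3.46% higher and 2.23% lower, in sum 5.69% of all genes. In siFRA1 cells 1 passed, against 3.17% higher and 1.76% lower, in sum 4.93%. That was NRP1, from 242 ± 30.0 to 318 ± 40.2 CPM (log2FC 0.39, adjusted p = 0.0161). In siCtl cells the values were 1.27, 1.31 and 0.865 CPM with vehicle and 2.65, 2.55 and 2.93 CPM with DEX for SEMA6A (log2FC 1.23, adjusted p = 0.117). SEMA4B stood at 192 ± 19.2 and 247 ± 25.4 CPM (log2FC 0.37, adjusted p = 0.313). The SEMA6A groups did not overlap, and the adjusted p of both members was over 0.05 in the fit without the block. In siCtl cells same-numbered libraries correlated at 0.078 to 0.304, so that not every pair passed the cutoff of 0.1 used for pairing. With the replicate block NRP1 (log2FC 0.28, adjusted p = 1.63e-04), SEMA4B (0.37, adjusted p = 3.09e-06) and SEMA6A (1.23, adjusted p = 0.0373) did pass there. The block called 9.74% of all genes in that comparison. These results in siCtl cells thus depend on whether the numbers are taken to pair the libraries. With the replicate block, SEMA3D (0.31) and SEMA4B (0.39) passed in siFRA1 cells and NRP1 (0.30), PLXNA1 (0.20) and SEMA4B (0.45) in siJUN cells, where the numbers pair the libraries, against 8.19% and 10.5% of all genes with the block. In the interactions of siFRA1 and of siJUN with DEX, 0 of 25 members passed edgeR's test, with 0 at an unadjusted p under 0.05 and 0 by DESeq2, against 0% of all genes.

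The call of NRP1 with DEX in siFRA1 cells was lost without any 1 of siFRA1 vehicle replicates 1 and 2 or siFRA1 DEX replicate 3 (adjusted p = 0.0911 to 0.153). That of SEMA3F in siJUN cells was lost with vehicle without any 1 of siCtl vehicle replicates 1 and 2 or siJUN vehicle replicate 1 (adjusted p = 0.0805 to 0.139), and with DEX without any 1 of siCtl DEX replicates 1 and 2 or siJUN DEX replicate 1 (adjusted p = 0.0844 to 0.129). That of PLXNA1 in siFRA1 cells was lost without any 1 of siCtl DEX replicates 1, 2 and 3 or siFRA1 DEX replicates 1 and 3 (adjusted p = 0.0808 to 0.164), and that of NRP2 in siJUN cells without any 1 of the 6 libraries (adjusted p = 0.0537 to 0.172).

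**Figure D4:**
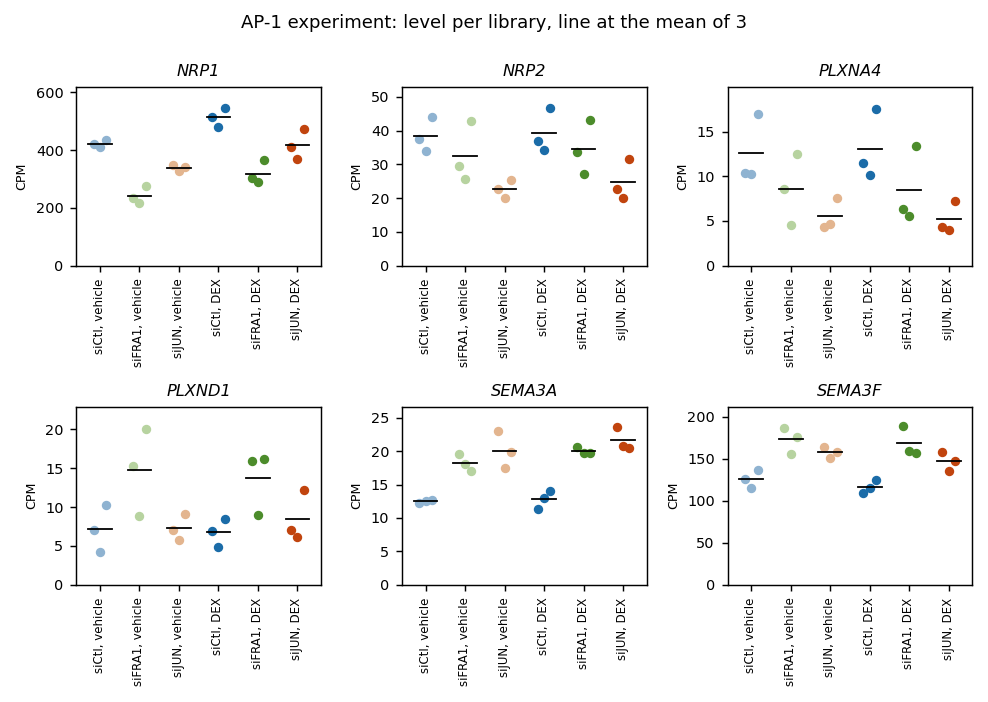
CPM of 6 members in the 6 groups of the AP-1 experiment, 1 point per library with a line at the mean of 3. Within each treatment, SEMA3A and SEMA3F are higher in siFRA1 and siJUN than in siCtl libraries, and NRP1 is lower in siFRA1 than in siCtl libraries.

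In fits of all libraries without the replicate block, 21 of 27 tested members passed at least once across the main comparisons of 3 experiments. There were 90 calls in all. The 6 that did not pass were the receptors PLXNA3, PLXNB3 and PLXNC1 and the ligands SEMA3B, SEMA3C and SEMA4D. With the block PLXNA3 passed for DEX at 2 h in siCtl cells (adjusted p = 0.0335) and for siFRA1 with DEX (adjusted p = 0.0218). SEMA3C then passed for siGATA6 with DEX (adjusted p = 0.0303) and for siJUN with vehicle (adjusted p = 7.77e-04) and DEX (adjusted p = 0.00118). Without the GC-rich libraries SEMA3C was called as higher with BRM014 at 24 h (log2FC 1.10, adjusted p = 8.77e-05) and at 4 h in DEX cells (log2FC 1.26, adjusted p = 6.62e-05), among others. DEX went with more NRP1 at 2 h and 4 h in these experiments, and with no called change at 24 h (log2FC -0.09, adjusted p = 0.446). SEMA5B fell with siGATA6, with BRM014 at 24 h and with DEX at 24 h, comparisons that in the BRM014 experiment share their DMSO libraries. SEMA3F rose with each of the 3 siRNAs and fell with BRM014 and with DEX at 24 h. Effects were not tested against each other between experiments.

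**Figure D5:**
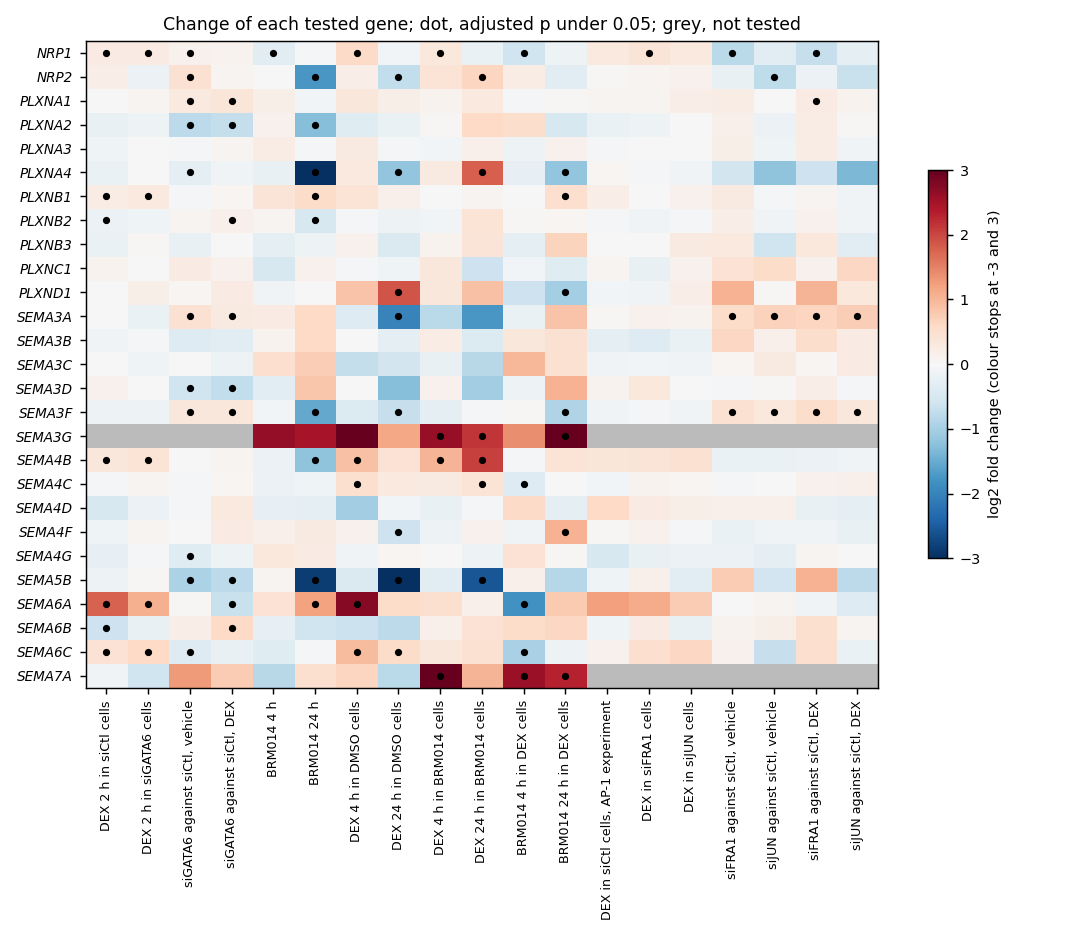
Log2 fold change of the 27 tested members in each main comparison, with colour stops at -3 and 3, a dot where the adjusted p is under 0.05 and grey where a gene was not tested. SEMA5B falls by 4.57 with DEX at 24 h and PLXNA4 by 4.18 with BRM014 at 24 h, whereas SEMA6A has 2.73 with DEX at 4 h and SEMA7A 4.07 with DEX at 4 h in BRM014 cells.

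Other genes of the pathway were read from lists of effectors, GTPases, co-receptors, growth factors and proteases. Their counts stand beside the share of all genes called in either direction, and no list was tested against it. Of 20 tested cytoplasmic effectors of semaphorin signalling, 1 rose and 8 fell after 24 h of BRM014, with a list median log2FC of -0.31 against 0.01 over all genes. That is 9 of 20 called, against 31.5% of all genes. The largest falls were in DPYSL3, a collapsin response mediator (from 7.53 ± 3.35 to 1.25 ± 0.368 CPM; log2FC -2.60, adjusted p = 5.92e-07), SH3BP1, a Rac GTPase-activating protein that binds plexins (log2FC -2.51, adjusted p = 2.25e-07), and MICAL2, an actin-oxidising enzyme (log2FC -2.12, adjusted p = 1.06e-10). With DEX at 4 h 5 rose and 2 fell, against 12.5% of all genes, and DPYSL3 (from 6.88 ± 1.02 to 25.5 ± 2.15 CPM; log2FC 1.89, adjusted p = 1.11e-05) and PIK3R1, a regulatory subunit of PI3-kinase (log2FC 1.55, adjusted p = 0.00119), led. With DEX at 2 h in siCtl cells 3 rose and 1 fell, against 15.9%, with PIK3R1 at 1.19 and DPYSL3 at 0.98. At 24 h of DEX 2 rose and 4 fell, against 25.6%. With siGATA6 and vehicle 2 rose and 6 fell, against 23.7%, with DPYSL3 at a log2FC of -0.80. In the AP-1 experiment PIK3R1 was the 1 effector to rise with DEX in siCtl cells (log2FC 1.32, adjusted p = 1.42e-05).

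Of 20 tested GTPases and exchange factors that work with plexins, 0 rose and 5 fell with DEX at 24 h by edgeR (list median -0.25 against -0.02), a share close to the 25.6% of all genes called. TIAM1, a Rac exchange factor, was among them (log2FC -0.66, adjusted p = 3.12e-05). TIAM1 had risen at 2 h in siCtl cells (log2FC 0.54, adjusted p = 0.0431) and at 4 h (log2FC 0.59, adjusted p = 1.42e-04), and it fell with siFRA1 (-0.48) and siJUN (-0.83). After 24 h of BRM014 2 of the 20 rose and 4 fell, close to the 31.5% of all genes. Of 9 tested co-receptors, 2 rose and 2 fell with BRM014 at 24 h (against 31.5% of all genes) and 1 rose and 4 fell with DEX at 24 h (against 25.6%), and MST1R, a receptor kinase that associates with B-type plexins, was lower in both (-1.60 and -1.48). MET, its relative, fell with DEX (log2FC -0.74, adjusted p = 7.12e-04), and L1CAM, the adhesion molecule that joins NRP1 in the SEMA3A receptor, rose with siGATA6 (log2FC 1.14, adjusted p = 0.00579) and siFRA1 (log2FC 1.17, adjusted p = 6.72e-06).

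Among the vascular growth factor genes that share neuropilins, 5 of the 8 measured were tested in the BRM014 experiment. VEGFA, a ligand of NRP1, rose with DEX at 4 h (from 85.8 ± 6.83 to 133 ± 15.0 CPM; log2FC 0.63, adjusted p = 6.87e-04) and fell with BRM014 at 24 h (log2FC -0.76, adjusted p = 5.05e-05) and with DEX at 24 h (log2FC -0.46, adjusted p = 0.00705). VEGFC fell with DEX at 4 h (-1.09) and 24 h (-1.28). PGF rose with siFRA1 (log2FC 1.21, adjusted p = 0.0176) and siJUN (log2FC 1.32, adjusted p = 0.0146), and fell with BRM014 at 24 h (-1.61). Of the convertases and proteases that cut semaphorins, 7 were tested there, and 2 rose and 1 fell with BRM014 at 24 h, against 31.5% of all genes: FURIN, which processes class 3 semaphorins (log2FC 0.62, adjusted p = 0.00571), ADAMTS1 (0.37) and MMP14 (-0.50). ADAMTS1 fell with DEX at 2 h in siCtl cells (log2FC -0.68, adjusted p = 1.02e-05).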

How the data were processed

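RNA of 54 BT549 libraries was measured by paired-end sequencing after ribosomal RNA depletion, per the labels' protocols, although the AP-1 samples are labelled as polyA RNA. RN7SK was at 67.0 to 110 CPM in AP-1, 2.38 to 11.9 in GATA6 and 0.512 to 3.19 in BRM014 libraries. RNA45S5 was at 70.5 to 98.7, 10.7 to 54.9 and 8.66 to 19.1 CPM in turn. How the RNA of the AP-1 libraries was selected was not tested. The authors deposited 1 table of raw read counts per gene symbol for each library. bcl2fastq, SAMtools, featureCounts and DESeq2 are named with the builds GRCh38 and hg38, per the submitters' processing notes, and STAR primary alignments were counted in the AP-1 experiment, per the file headers. The strand setting is not given in the sources used here, and headers of some AP-1 tables name another library number than the deposited table. A series table equal to the siCtl vehicle replicate 1 table of the AP-1 experiment was not used, and libraries of MDA-MB-231 cells were not analysed here.

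The count tables were fitted for each experiment with edgeR 4.0.16 (R 4.3.3, limma 3.58.1), after filtering at a minimum count of 10 and TMM scaling, with a mean for each group and the quasi-likelihood test. p-values were two-sided and adjusted by Benjamini-Hochberg over the 13897, 14547 and 13658 genes tested for GATA6, BRM014 and AP-1 in turn. The biological coefficient of variation was 5.57%, 18.8% and 9.80%, so that small changes are harder to see in the BRM014 experiment. The fit was tested on simulated data with known changes. CPM uses the scaled library sizes. Counting intervals cover counting error only. Replicate pairs differed by more than sampling noise in all 54 pairs (chi-square per degree of freedom 3.17 to 113.5), so none was merged.

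The members and the gene lists were chosen with earlier results of these data known. Members called at an adjusted p under 0.05 with at least 1 CPM in the higher group are named, at most 10 for a main effect and 5 for an interaction or time difference, and per-library values follow at a log2FC of at least 1 in size. Up to 3 called genes of each list are named. NRP1 in siGATA6 cells with vehicle, SEMA4B and NRP1 as the sixth in the time differences, and SEMA3G and SEMA7A under 1 CPM fall outside this and were named after their values were seen, as were members that passed only with the replicate block or did not pass.

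Replicate numbers were taken to pair libraries in a comparison where all 3 same-numbered pairs deviated together with a correlation over 0.1. This held for DEX at 2 h in siCtl (0.12 to 0.223) and siGATA6 cells (0.181 to 0.288), siGATA6 with vehicle (0.113 to 0.184) and DEX (0.101 to 0.171), and DEX in DMSO cells at 4 h (0.124 to 0.293) and 24 h (0.266 to 0.598). It also held for DEX at 24 h in BRM014 cells (0.393 to 0.813), BRM014 in DEX cells at 4 h (0.118 to 0.219) and 24 h (0.379 to 0.807), the DMSO times (0.135 to 0.227), DEX in siFRA1 (0.113 to 0.323) and siJUN cells (0.179 to 0.361), and siFRA1 with vehicle (0.104 to 0.258). The pairing is read from the data, since the labels do not say what a number shares. Some comparisons lie close to the cutoff: siJUN with DEX missed it with a lowest correlation of 0.097, where siGATA6 with DEX met it at 0.101. Alternatives were the replicate block, DESeq2 1.42.0, other scalings, no filter, a fit of only the compared groups, each library left out in turn, and, chosen after seeing the data, the BRM014 experiment without its 5 GC-rich libraries, those with a GC contrast over 0.65.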

Additional observations from a re-analysis of the deposited data

Results flagged for a closer look

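All results here were picked out because an effect differed between times or between treatments in a test of the difference itself, by edgeR's quasi-likelihood test with adjustment over all genes. With 3 libraries a group, single outlying libraries were not tested for.

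The effect of BRM014 differed between 24 h and 4 h for PLXNA4 (log2FC difference -3.95), SEMA5B (-2.93), NRP2 (-1.75), SEMA3F (-1.43) and PLXNA2 (-1.40), each lower at 24 h.

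The effect of DEX in DMSO cells differed between 24 h and 4 h for SEMA5B (log2FC difference -4.13), SEMA6A (-2.17), PLXNA4 (-1.48), NRP2 (-0.95) and SEMA4F (-0.75), each lower at 24 h. The SEMA6A difference did not pass without the GC-rich libraries.

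At 4 h the effect of DEX differed between BRM014 and DMSO cells for SEMA7A (3.42) and SEMA6A (-2.25), and at 24 h for PLXNA4 (2.98), SEMA4B (1.62), NRP2 (1.39) and SEMA4F (0.77), all on the log2 scale. The SEMA6A interaction did not pass without the GC-rich libraries.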

How the results depend on the processing

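No called log2FC of a member changed direction under any alternative run. Of 108 called values, 105 kept their call with library totals alone, 107 with RLE size factors, 101 without the filter, 108 with the replicate block and 101 with DESeq2. With only the compared groups 91 of 104 did, with 1 library left out 637 of 756, and without the GC-rich libraries 47 of 58. DESeq2 did not call SEMA6B and PLXNB1 for DEX at 2 h in siCtl cells or SEMA4G for siGATA6 with vehicle. Nor did it call SEMA6A, SEMA6B and SEMA3A for siGATA6 with DEX, or SEMA3G for DEX at 4 h in BRM014 cells. Library totals moved the median of all genes to 0.147 for BRM014 at 24 h and 0.138 for its time difference. Counts of called members moved by over 1.5 times as follows. With the replicate block, members called were 12 and 8 for DEX at 2 h in siCtl and siGATA6 cells, 1 for the siGATA6 by DEX interaction, 10 for DEX at 24 h in BRM014 cells, 3 each for DEX in siCtl, siFRA1 and siJUN cells of the AP-1 experiment, 11 for siFRA1 with vehicle and 11 with DEX, and 8 and 6 for siJUN. Of all genes the block called 1.81% for that interaction and 9.74% for DEX in siCtl cells of the AP-1 experiment. It called 26.5% for siFRA1 with DEX, and 18.7% and 17.2% for siJUN with vehicle and DEX. The numbers did not pair the libraries by the correlation used for that interaction, DEX in siCtl cells of the AP-1 experiment, siFRA1 with DEX or siJUN. There the block called NRP2 in the interaction (-0.37, adjusted p = 0.00823), NRP1 (0.28, adjusted p = 1.63e-04), SEMA6A (1.23, adjusted p = 0.0373) and SEMA4B (0.37, adjusted p = 3.09e-06) for DEX in siCtl cells. For siJUN it added NRP1 (-0.32, adjusted p = 2.28e-05), PLXNA4 (-1.19, adjusted p = 6.99e-07) and SEMA3C (0.25, adjusted p = 7.77e-04) with vehicle among others, and NRP1 (-0.30, adjusted p = 4.58e-05), PLXNA4 (-1.34, adjusted p = 6.41e-08), NRP2 (-0.67, adjusted p = 2.85e-07) and SEMA3C (0.25, adjusted p = 0.00118) with DEX. The block ended no call, and libraries correlated best with their own number in 12 of 12, 21 of 24 and 17 of 18 cases. Without the filter 1 member was called in the siGATA6 by DEX interaction. With only the compared groups, counts were 2 for BRM014 at 4 h, 10 and 5 for DEX at 4 h and 24 h, 2 and 3 for DEX in BRM014 cells, 8 and 4 for BRM014 in DEX cells, 3 and 0 for DEX in siCtl and siFRA1 cells of the AP-1 experiment, and 5 for siJUN with vehicle. Without the GC-rich libraries they were 3 for BRM014 at 4 h, 2 for DEX at 4 h in BRM014 cells and 1 for the 4 h interaction, and by DESeq2 4 for siJUN with DEX. With 1 library left out they ranged from 7 to 10 and 5 to 7 for siGATA6 with vehicle and DEX, 0 to 1 for its interaction, 5 to 8 for DEX at 4 h, 2 to 3 for DEX at 4 h in BRM014 cells, and 1 to 2 and 4 to 8 for the BRM014 by DEX interactions. In the AP-1 experiment they ranged from 0 to 1 and 0 to 2 for DEX in siFRA1 and siJUN cells, and 1 to 2 and 1 to 4 for siJUN with vehicle and DEX. The cause of these shifts was not tested. Depth limits SEMA3G and SEMA7A, which rest on few counts.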

Other observations

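Genes of other guidance families were read in the same libraries, and no family was tested against the share of all genes called. Of 9 tested Slit and Robo genes, 0 rose and 5 fell with DEX at 24 h by edgeR, with a list median log2FC of -1.08 against -0.02 over all genes, of which 25.6% were called. SLIT3, a secreted guidance ligand, fell from 201 ± 28.1 to 83.3 ± 6.70 CPM (log2FC -1.27, adjusted p = 2.82e-06), and SRGAP3, a GTPase-activating protein of Robo signalling, from 8.93 ± 0.733 to 3.75 ± 0.304 CPM (log2FC -1.25, adjusted p = 8.25e-04). With siGATA6 and vehicle 5 of 8 rose and 0 fell, against 23.7% of all genes, SLIT2 among them (from 101 ± 2.59 to 154 ± 16.2 CPM; log2FC 0.60, adjusted p = 2.36e-04). ROBO4, which also stands in the endothelial marker list, rose there (0.86) and fell with DEX at 24 h (-2.42).

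Of 15 tested ephrins and Eph receptors, 3 rose and 4 fell with DEX at 2 h in siCtl cells, against 15.9% of all genes. EPHA2, a receptor kinase, fell from 356 ± 13.2 to 95.4 ± 3.74 CPM (log2FC -1.90, adjusted p = 5.62e-12), and in the BRM014 experiment it fell with BRM014 at 4 h (log2FC -1.34, adjusted p = 2.79e-07) and with DEX at 4 h (log2FC -1.51, adjusted p = 3.06e-09), which share their DMSO libraries. EPHB6, a receptor without kinase activity, rose with DEX at 24 h from 0.505 ± 0.168 to 14.9 ± 6.65 CPM (log2FC 4.83, adjusted p = 2.17e-09). Of 12 tested netrin pathway genes, 5 rose and 3 fell with BRM014 at 24 h, against 31.5% of all genes, and the ligand NTN1 fell from 62.5 ± 2.63 to 29.8 ± 3.96 CPM (log2FC -1.07, adjusted p = 3.91e-07). NTNG1, a membrane-anchored netrin, fell with DEX at 24 h from 6.11 ± 0.634 to 0.789 ± 0.0501 CPM (log2FC -2.95, adjusted p = 1.69e-06).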
